A study of Mus musculus with 16 samples.

Results

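The top of a beta-estradiol dose series in G1E-ER4 cells was examined by comparing the 2 libraries at 200 nM with the 2 libraries at 150 nM, 4 of the 16 libraries of the study. All 23410 gene symbols of the count table were considered, and 10080 had enough reads to be tested. G1E-ER4 is a mouse erythroid cell line, derived as 1 clone from cells that make no GATA1 of their own, and it carries GATA1 fused to the hormone-binding domain of the estrogen receptor. The agent in every treated group is beta-estradiol. The study also has groups at 12.5, 25, 50 and 75 nM, with 2 libraries each, which enter the fitted model and the dose profiles. The comparisons here use cells at 200 nM, at 150 nM, at 100 nM and, without beta-estradiol, at 0 nM, with 2 libraries at each dose. All of these groups share the same line, the same fusion gene, and a serum medium to which SCF and erythropoietin were added. The sources used here do not state how long the cells were exposed. Nothing says whether the 2 libraries of a dose came from separate cultures, so the p-values measure the spread between these libraries, which may be technical.

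GATA1 is the zinc finger transcription factor that red cell precursors need to mature. With the ligand, the fusion protein enters the nucleus, binds DNA at GATA motifs and switches on genes for globins, heme synthesis and the red cell membrane, while genes of the progenitor state, among them Gata2 and Kit, are switched off. Terminal red cell maturation is also known for a halt of cell division, shrinkage of the nucleolus and removal of organelles. In bulk RNA, a change in the share of cells that respond and a change of RNA level within each cell cannot be told apart.

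Between 150 and 200 nM much of the transcriptome still moved, in small steps. At 200 nM, 1956 of the 10080 genes were higher than at 150 nM, 19.4% of those tested, and 2010 were lower, 19.9%. Together these are 3966 genes, 39.3%, called at an adjusted p under 0.05 by edgeR's quasi-likelihood test with Benjamini-Hochberg adjustment. The median change among these genes was 1.28-fold for those that rose and 1.29-fold for those that fell. A change of 1.5-fold or more was found for 297 genes that rose and 432 that fell, and of 2-fold or more for 42 that rose and 118 that fell. Of these 160 genes, 141 stayed under 20 CPM (counts scaled to the size of the library and by TMM) at both doses, and 8 of the remaining 19 were higher. Past that level the embryonic globin gene Hbb-y rose most, and the carbonic anhydrase gene Car1 and the ubiquitin ligase gene Skp2 fell most.

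The 4 libraries held 12834685 and 14000564 counts at 200 nM, against 14268228 and 9393156 counts at 150 nM, and the 16 libraries lay between 9393156 and 15802510. The entry Rn45s, named for ribosomal 45S precursor RNA, took 14.6% and 15.3% of the counts at 200 nM, against 13.4% and 14.1% at 150 nM. It took between 8.94% and 15.3% over the series. Whether its reads came from the precursor or from mature ribosomal RNA was not tested. The measured globin genes took 5.88% and 5.82% of the counts at 200 nM, against 4.47% and 4.57% at 150 nM. TMM scaling factors were 0.846 and 0.843 at 200 nM, against 0.911 and 0.909 at 150 nM. With scaling by library size alone the median gene was 0.11 lower on the log2 scale at 200 nM, and the counts became 1168 genes higher and 3088 lower, so the balance of rises and falls rests on the scaling and each direction below is relative to the TMM scale. On the first principal component, which held 82.3% of the variance of the log2 CPM values, the doses from 50 nM up followed each other in order, and the 2 libraries of each dose lay close together. The 2 libraries at 200 nM were at 84.1 and 84.5 on it, against 60.7 and 60.99 for those at 150 nM. The erythroid markers Klf1, Epor, Tfrc, Slc4a1, Alas2, Hbb-b1, Epb4.2 and Kit were detected at both doses.

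In what follows, a value in parentheses after a gene's levels is its log2 fold change of 200 against 150 nM with its SE (n = 2 each). Every gene given that way passed the test. The 2 doses did not overlap in 6752 of the tested genes, 66.98%, so that lack of overlap is the usual state here. It held in every gene whose libraries are given, and the genes with the largest changes were picked for the same direction in every pairing of libraries. The 3 embryonic globins, which in the mouse belong to the first wave of red cells of the yolk sac, were among the 4 genes past 20 CPM that rose most. Hbb-y, the embryonic epsilon-like beta-globin gene (chromosome 7, 103851749 to 103853216, mm10), had 141 and 139 CPM at 200 nM, against 17.8 and 18.2 CPM at 150 nM. Both libraries at 200 nM lay far above both at 150 nM, with a log2 fold change of 2.96 ± 0.11 (SE, n = 2 each) and an edgeR adjusted p of 3.54e-26. Hba-x, the embryonic zeta-like alpha-globin gene (chromosome 11, 32276400 to 32278116), had 106 and 105 CPM at 200 nM, against 34.2 and 30.2 CPM at 150 nM. Its log2 fold change was 1.70 ± 0.10. Hbb-bh1, another embryonic beta-like gene (chromosome 7, 103841637 to 103843164), had 1946 and 1918 CPM at 200 nM, against 818 and 804 CPM at 150 nM. Its log2 fold change was 1.25 ± 0.04. The other globin genes had smaller fold changes. Beta-s, the major adult beta-globin under the symbol of the table, had 55518 and 55232 CPM at 200 nM, against 39871 and 41234 CPM at 150 nM (0.45 ± 0.06). Hba-a2, an adult alpha-globin gene, had 10545 and 10242 CPM at 200 nM, against 7428 and 7288 CPM at 150 nM (0.50 ± 0.03). Hbb-b1 had 1236 and 1297 CPM at 200 nM, against 773 and 795 CPM at 150 nM (0.69 ± 0.08). Hbq1b, a theta-like globin gene, had 102 and 89.7 CPM at 200 nM, against 68.8 and 66.8 CPM at 150 nM (0.49 ± 0.08). All 7 globin genes that were tested rose, and all 7 had also risen at 150 against 100 nM. Reads of near-identical globin genes can be split or dropped in counting, so the values of single adult members are uncertain. Hbb-y was near 0 at the low doses and averaged 0.0631, 0.347, 1.03, 2.65, 18.001 and 140.0 CPM at 0, 50, 75, 100, 150 and 200 nM. Hbb-y was higher at 150 than at 100 nM by 2.76 ± 0.17 on the log2 scale, and the test of the last step minus the step before gave a difference of 0.20 ± 0.27 (edgeR adjusted p = 0.831).

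The promoters of the embryonic globin genes Hbb-y and Hba-x are shown here, and the capitals mark each CACCC on either strand. The CACCC box is the element that Krüppel-like factors such as KLF1 bind at genes of this kind. Only windows that held CACCC were taken for printing, so its presence in both was fixed in advance, and Hbb-bh1 is not shown. Among tested globin genes with a single promoter, 4 of 5 held CACCC (80%). The sequences are from RefSeq (GRCm38.p6), 250 bases before to 50 bases after the start of the gene, written 5′ to 3′ on the gene's strand. The positions are chr7:103853158-103853457, minus strand, for Hbb-y and chr11:32276350-32276649, plus strand, for Hba-x.
Hbb-y: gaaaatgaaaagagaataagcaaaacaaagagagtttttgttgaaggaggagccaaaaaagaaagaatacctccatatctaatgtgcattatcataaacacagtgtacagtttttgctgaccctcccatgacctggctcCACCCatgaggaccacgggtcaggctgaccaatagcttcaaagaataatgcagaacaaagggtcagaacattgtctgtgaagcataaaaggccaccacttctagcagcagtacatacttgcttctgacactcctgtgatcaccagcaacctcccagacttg
Hba-x: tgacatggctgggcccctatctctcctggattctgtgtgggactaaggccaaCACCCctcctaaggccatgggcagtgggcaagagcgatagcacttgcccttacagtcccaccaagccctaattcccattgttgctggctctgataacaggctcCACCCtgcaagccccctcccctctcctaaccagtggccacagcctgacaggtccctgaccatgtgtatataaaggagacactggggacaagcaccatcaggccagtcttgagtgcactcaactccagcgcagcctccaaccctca
The letters CACCC were found 1 time in the Hbb-y window and 2 times in the Hba-x window. They are short and common, in 56.0% of the 22862 promoters of genes with a single promoter in the table, in 62.9% of the 1225 such promoters of genes that rose, in 56.8% of the 1323 of genes that fell and in 61.2% of the 3856 of genes that were not called. The GATA letters AGATAA, on either strand, were in 7.02% of the promoters of genes that rose, 6.05% of those that fell, 5.60% of those not called and 11.5% of all.

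**Figure D1:**
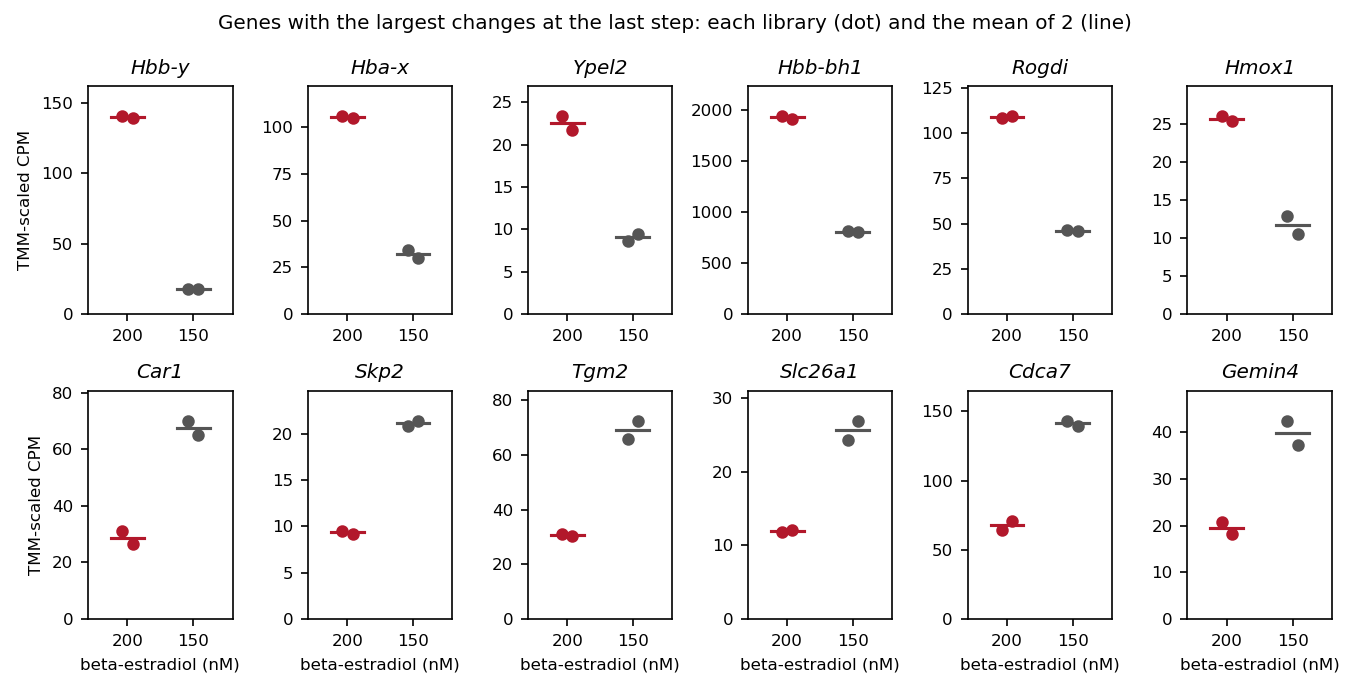
TMM-scaled CPM of the 6 genes that rose most (upper row) and the 6 that fell most (lower row) past 20 CPM, with 200 nM left of 150 nM in each panel, a dot for each library, a line for the mean of 2 and an axis that starts at 0. The doses do not overlap in these 12 genes, which were picked for the same direction in every pairing (66.98% of all tested genes do not overlap), and Hbb-y stands at 141 and 139 CPM at 200 nM against 17.8 and 18.2 CPM at 150 nM.

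Outside the globins, the genes past 20 CPM that rose most included Ypel2, Rogdi and Hmox1. Hmox1, which encodes the inducible heme oxygenase that breaks heme down (chromosome 8, 75093621 to 75100589), had 26.1 and 25.3 CPM at 200 nM, against 12.9 and 10.5 CPM at 150 nM. It rose by 1.11 ± 0.14 on the log2 scale (edgeR adjusted p = 3.42e-09). Ypel2 (chromosome 11, 86936425 to 86993707) had 23.4 and 21.8 CPM at 200 nM, against 8.69 and 9.49 CPM at 150 nM. Its log2 fold change was 1.32 ± 0.17. Rogdi (chromosome 16, 5008730 to 5013553) had 108 and 109.6 CPM at 200 nM, against 46.5 and 45.8 CPM at 150 nM. Its log2 fold change was 1.24 ± 0.08. In each of these genes, which were picked for it, both libraries at 200 nM exceeded both at 150 nM. Slc38a5, a glutamine transporter of the cell surface (chromosome X, 8271133 to 8280179), had 160.0 and 154 CPM at 200 nM, against 75.8 and 84.8 CPM at 150 nM (0.97 ± 0.08). Neu1, the sialidase of the lysosome, had 25.8 and 27.9 CPM at 200 nM, against 13.5 and 14.2 CPM at 150 nM (0.96 ± 0.14). Plin3, a coat protein of lipid droplets, had 29.1 and 29.1 CPM at 200 nM, against 13.8 and 14.2 CPM at 150 nM (1.06 ± 0.12). The long noncoding RNA Neat1, the scaffold of nuclear paraspeckles, had 80.3 and 76.8 CPM at 200 nM, against 40.0 and 39.0 CPM at 150 nM (0.99 ± 0.09). The other rising genes with the 15 highest changes were Dhrs3, a retinaldehyde reductase (1.03), Btn1a1, a butyrophilin (0.98), Ppp2r5b, a regulatory subunit of protein phosphatase 2A (0.98), Aqp8, a channel for water and hydrogen peroxide (0.96), and the zinc finger gene Zfp750 (0.95), all on the log2 scale.

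The 15 genes that fell most were led by Car1 and Skp2. Car1, a cytosolic carbonic anhydrase (chromosome 3, 14766216 to 14808368), had 31.0 and 26.5 CPM at 200 nM, against 70.2 and 65.0 CPM at 150 nM. It fell by 1.25 ± 0.06 on the log2 scale (edgeR adjusted p = 5.13e-20). Skp2, the ubiquitin ligase subunit that marks the cell cycle inhibitor encoded by Cdkn1b for destruction (chromosome 15, 9111985 to 9155425), had 9.49 and 9.24 CPM at 200 nM, against 20.8 and 21.4 CPM at 150 nM. It fell by 1.17 ± 0.12. Both libraries at 200 nM lay under both at 150 nM for each gene, a state for which they were picked. Gart, which carries 3 steps of purine synthesis (chromosome 16, 91621186 to 91646952), had 109 and 103 CPM at 200 nM, against 216 and 223 CPM at 150 nM. It fell by 1.05 ± 0.04. Mthfd1l, the mitochondrial enzyme that supplies formate, had 35.8 and 34.9 CPM at 200 nM, against 69.1 and 68.3 CPM at 150 nM. It fell by 0.96 ± 0.06. Hells, a chromatin remodeller, had 53.4 and 57.5 CPM at 200 nM, against 108 and 111 CPM at 150 nM (-0.98 ± 0.05). Its partner Cdca7 had 64.6 and 70.7 CPM at 200 nM, against 143 and 139.5 CPM at 150 nM (-1.06 ± 0.05). The 3 enzymes Dna2, a nuclease and helicase of DNA replication (-1.04), Trub1, a pseudouridine synthase (-1.01), and Trmt61a, a methylase of transfer RNA (-1.02), fell as well. The remaining genes among the 15 lowest were Tgm2, a transglutaminase (-1.16), the sulfate transporter gene Slc26a1 (-1.08), Gemin4 of the SMN complex (-1.05), Bzw2 (-1.03), Dnph1, a nucleotide hydrolase (-0.97), and Grwd1 (-0.97).

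**Figure D2:**
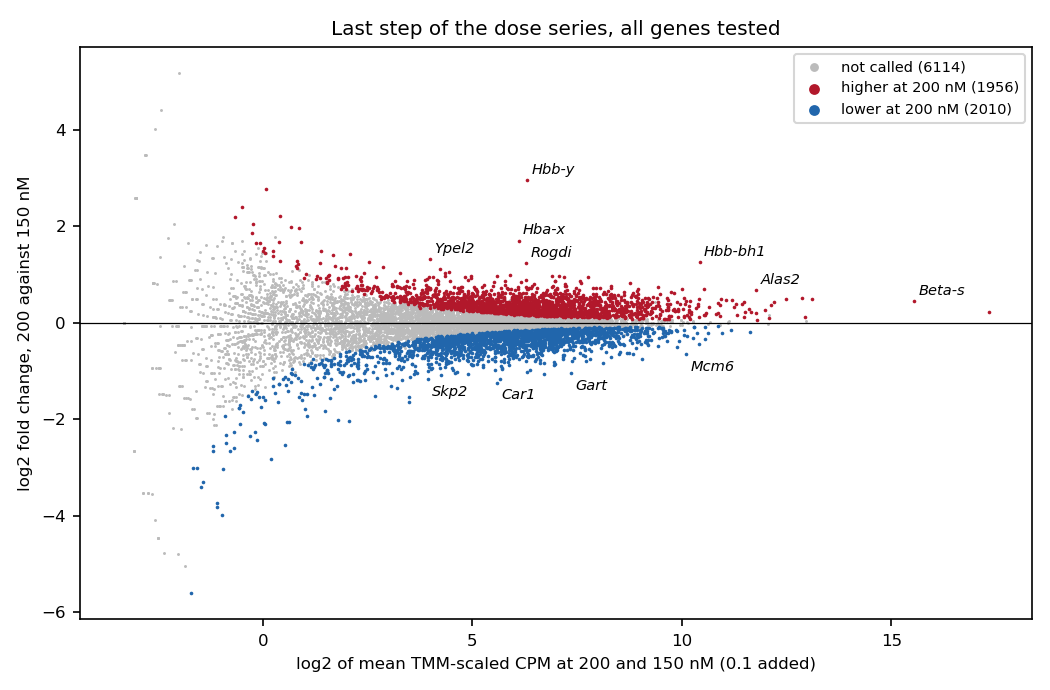
Log2 fold change of 200 against 150 nM for each of the 10080 tested genes against its mean level in log2 CPM, at 200 and 150 nM (0.1 added), with genes called higher in red, called lower in blue and others in grey. Most large changes lie among genes of low level, and the labelled Hbb-y at 2.96 is the highest of the genes that were named.

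Gata1 itself rose slightly, and some other regulators, Gata2 among them, changed by more. Gata1 had 1675 and 1610.3 CPM at 200 nM, against 1451 and 1389.9 CPM at 150 nM. Its log2 fold change was 0.21 ± 0.07 (edgeR adjusted p = 0.0402). Reads of the fusion gene and of the line's own Gata1 locus cannot be told apart in these counts. The 2 groups did not overlap, but the call was lost with library size scaling (adjusted p = 0.315), and it was lost without each of the 4 libraries in turn (adjusted p between 0.074 and 0.176). Gata2, the progenitor GATA factor, had 14.9 and 17.965 CPM at 200 nM, against 30.8 and 26.1 CPM at 150 nM. It fell by 0.80 ± 0.16 (edgeR adjusted p = 0.000791). Of 20 erythroid transcription factors tested 12 rose and 2 fell, with a median log2 fold change of 0.21 where the median over all tested genes was -5.53e-05. Nfe2, a partner of small Maf proteins at globin enhancers, had 796 and 783 CPM at 200 nM, against 621 and 627 CPM at 150 nM (0.34 ± 0.03). Its partner Mafk had 251 and 257 CPM at 200 nM, against 193 and 202 CPM at 150 nM (0.37 ± 0.05). Foxo3, a factor for antioxidant and autophagy genes, had 303 and 293 CPM at 200 nM, against 239 and 227 CPM at 150 nM (0.35 ± 0.05). Klf1, which binds the CACCC box, had 672 and 644 CPM at 200 nM, against 546 and 591 CPM at 150 nM (0.21 ± 0.04). The 2 factors of the list that fell were Bcl11a (-0.26), a repressor of embryonic and fetal globin genes, and Lmo4 (-0.34), both named after their values were seen. The call of Bcl11a held in all 13 alternatives run. That of Lmo4 was lost in 8 of 13, with the replicate block, DESeq2, no filter on low counts, the compared doses alone and the length trend removed, and without replicate 1 at 200 nM or either replicate at 150 nM (adjusted p between 0.0508 and 0.310 where lost). With library size scaling 9 factors rose and 4 fell. Of 10 progenitor factors and receptors 1 rose and 5 fell (median -0.19). Myc, a driver of growth, had 96.9 and 90.7 CPM at 200 nM, against 132 and 133 CPM at 150 nM. It fell by 0.50 ± 0.05. Kit, the receptor of stem cell factor, had 198 and 186 CPM at 200 nM, against 250.4 and 249 CPM at 150 nM. It fell by 0.38 ± 0.04. Lyl1 fell by 0.53 ± 0.05. Fli1, a factor of the megakaryocyte lineage, was the member that rose, with 46.9 and 44.4 CPM at 200 nM, against 31.5 and 30.5 CPM at 150 nM (0.56 ± 0.11).

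Heme synthesis genes mostly rose by small steps, and genes of iron and peroxide handling did so in part. Of 15 heme synthesis genes 11 rose and 0 fell, with a median of 0.21 on the log2 scale, and with library size scaling 8 rose and 0 fell. Alas2, the first enzyme of the pathway in red cells, had 4355 and 4286 CPM at 200 nM, against 2748 and 2652 CPM at 150 nM (0.68 ± 0.03). Fech, which inserts iron as the last step, had 3248 and 3296 CPM at 200 nM, against 2463 and 2412 CPM at 150 nM (0.42 ± 0.03). Urod had 662 and 665 CPM at 200 nM, against 528 and 499 CPM at 150 nM (0.37 ± 0.04). Abcb10, a transporter of the inner mitochondrial membrane, had 2204 and 2129 CPM at 200 nM, against 1669 and 1675 CPM at 150 nM (0.37 ± 0.03). Both libraries at 200 nM were the higher ones in these genes, in which, as in 66.98% of all tested genes, the doses did not overlap. Among 13 iron genes 7 rose and 3 fell, which became 4 and 3 with library size scaling. Here, and among the heme breakdown and peroxide genes below, the 3 that fell are near the 19.9% of all tested genes that fell. The ferritin chain genes were among those that rose. Ftl1 had 8858 and 8691 CPM at 200 nM, against 5918 and 6349 CPM at 150 nM (0.52 ± 0.03). Fth1 had 4436 and 4367 CPM at 200 nM, against 3676 and 3624 CPM at 150 nM (0.27 ± 0.03). Slc40a1, the iron exporter ferroportin, rose too (0.38 ± 0.03). The transferrin receptor 2 gene Tfr2 fell by 0.71 ± 0.08, with 21.7 and 23.1 CPM at 200 nM, against 36.8 and 36.7 CPM at 150 nM. Of 18 genes for heme breakdown and peroxide handling 9 rose and 3 fell, and those that rose included catalase (Cat, 0.51 ± 0.03), the peroxiredoxin Prdx2 (0.37 ± 0.03), the biliverdin reductase Blvrb (0.39 ± 0.03) and the superoxide dismutase Sod1 (0.34 ± 0.03). With library size scaling these counts were 8 and 5.

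The red cell membrane and its skeleton rose almost as a whole, with 17 of 21 genes higher, 1 lower and a median of 0.32. Slc4a1, the band 3 anion exchanger, had 6728 and 6643 CPM at 200 nM, against 4854 and 4671 CPM at 150 nM (0.49 ± 0.03). Mpp1, a membrane scaffold, had 1061 and 1039.7 CPM at 200 nM, against 692 and 654 CPM at 150 nM (0.64 ± 0.04). Add2, the beta subunit of adducin, had 1609 and 1587 CPM at 200 nM, against 1146 and 1115 CPM at 150 nM (0.50 ± 0.03). Sptb, beta-spectrin, had 2199 and 2077 CPM at 200 nM, against 1621 and 1602 CPM at 150 nM (0.41 ± 0.03). The 200 nM libraries were the higher ones in these genes, with no overlap, the state of 66.98% of all tested genes. The member that fell was Slc2a1, the glucose transporter of many cell types, with 20.9 and 24.2 CPM at 200 nM, against 26.8 and 29.9 CPM at 150 nM (-0.32 ± 0.11, edgeR adjusted p = 0.0142). Its call was lost without replicate 1 at 200 nM (adjusted p = 0.188) and without replicate 2 at 150 nM (adjusted p = 0.129).

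Genes for taking the cell's contents apart rose too. Of 20 autophagy and organelle clearance genes 17 rose and 0 fell (median 0.44). Sqstm1, the adaptor that brings ubiquitin-marked cargo to autophagosomes, had 1385 and 1347 CPM at 200 nM, against 1007 and 981 CPM at 150 nM (0.46 ± 0.03). Genes of autophagosome membrane proteins were also higher. Gabarap had 705 and 672 CPM at 200 nM, against 487 and 471 CPM at 150 nM (0.52 ± 0.04). Map1lc3b had 358 and 347 CPM at 200 nM, against 247 and 248 CPM at 150 nM (0.51 ± 0.04). Optn, another cargo adaptor, had 251 and 239 CPM at 200 nM, against 174 and 172 CPM at 150 nM (0.50 ± 0.05). Of 20 lysosome genes 14 rose and 0 fell (median 0.30). The protease gene Ctsb had 1852 and 1797 CPM at 200 nM, against 1161 and 1095 CPM at 150 nM (0.69 ± 0.03). The cholesterol carrier gene Npc2 had 338 and 333 CPM at 200 nM, against 230.0 and 213 CPM at 150 nM (0.59 ± 0.04). Of 16 ubiquitin enzymes known from red cell maturation 15 rose and 0 fell (median 0.34), among them Fbxo30 (0.58 ± 0.05), Ranbp10 (0.48 ± 0.06), Ube2l6 (0.35 ± 0.04) and Ube2c (0.33 ± 0.03), the last of which works in mitotic exit. Proteasome subunits fell in small steps, with 2 of 26 subunits higher, 14 lower and a median of -0.09. The count of lower subunits was 22 with library size scaling, 9 with the length trend removed, and 9 and 7 without replicate 1 and replicate 2 at 200 nM. Psma1 had 532 and 500.2 CPM at 200 nM, against 639 and 682 CPM at 150 nM (-0.35 ± 0.03).

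**Figure D3:**
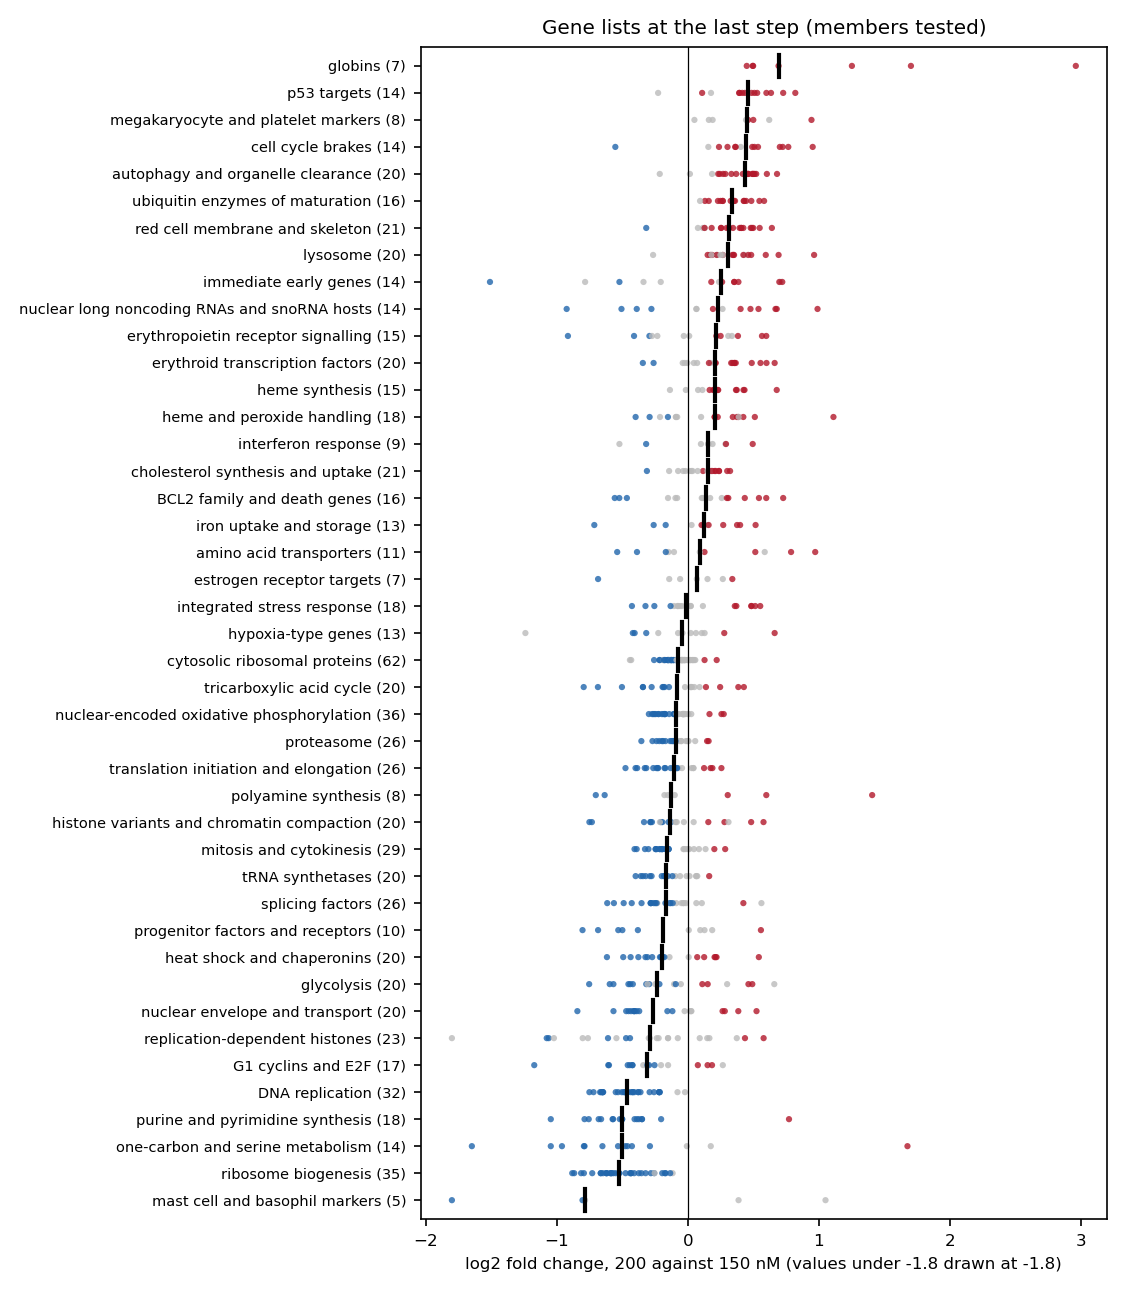
Log2 fold change of 200 against 150 nM for every tested member of the gene lists with at least 5 tested members, except the erythroid defining markers. Each list has its own row, with its number of members and a black bar for the list median. Red and blue mark members called higher and lower, grey marks others, and values under -1.8 are drawn at -1.8. Ribosome biogenesis (32 of 35 lower) and DNA replication (30 of 32 lower) lie left of 0, and red cell membrane genes (17 of 21 higher) lie mostly right of it.

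Most cell cycle brakes rose, and among G1 cyclin, kinase and E2F genes more fell than rose. Over all tested genes 19.4% rose and 19.9% fell. The 3 death genes that fell and the 3 G1 genes that rose, below, are near those shares. Of 14 cell cycle brakes 11 rose and 1 fell (median 0.45), and with DESeq2 7 rose and 1 fell. Cdkn1a, an inhibitor of cyclin-dependent kinases, had 589 and 583 CPM at 200 nM, against 401 and 424 CPM at 150 nM (0.51 ± 0.04). Cdkn2c, an inhibitor of the kinases that bind D-type cyclins, had 64.8 and 63.9 CPM at 200 nM, against 38.6 and 39.4 CPM at 150 nM (0.72 ± 0.09). Mxd1, which competes with MYC for its partner MAX, had 184 and 198 CPM at 200 nM, against 116 and 108 CPM at 150 nM (0.77 ± 0.06). Btg2, an antiproliferative gene, had 689 and 710.4 CPM at 200 nM, against 506 and 489 CPM at 150 nM (0.49 ± 0.04). The 200 nM libraries were the higher ones in these genes, without overlap, as in 66.98% of all tested genes. The brake that fell was Rbl1 (-0.55 ± 0.13), a pocket protein of the retinoblastoma family, and Cdkn1b, whose product is a target of Skp2, rose by 0.70 ± 0.14, both named after their values were seen. The call of Rbl1 was lost without replicate 1 at 200 nM (adjusted p = 0.0613) and without replicate 1 at 150 nM (adjusted p = 0.0729). Of 14 p53 targets 12 rose and 0 fell (median 0.46). Trp53inp1 had 562 and 539.9 CPM at 200 nM, against 308 and 316 CPM at 150 nM (0.82 ± 0.04). Sesn2, a stress-induced brake on mTOR signalling, had 225 and 210.4 CPM at 200 nM, against 156 and 155 CPM at 150 nM (0.49 ± 0.05). The death effector gene Bax had 378 and 360.1 CPM at 200 nM, against 282 and 263 CPM at 150 nM (0.43 ± 0.04). Cdkn1a and Bax are also on other lists. Among 16 death genes 6 rose and 3 fell, and with library size scaling 4 rose and 5 fell, so the balance turned with the scaling. Bcl2l1, which encodes the survival protein BCL-XL, had 862 and 863 CPM at 200 nM, against 583 and 555 CPM at 150 nM (0.60 ± 0.04). Apaf1 of the apoptosome had 111 and 99.8 CPM at 200 nM, against 70.0 and 75.1 CPM at 150 nM (0.54 ± 0.07). Of 17 G1 cyclins, their kinases and E2F factors 3 rose and 10 fell (median -0.31). Cdk4 had 234 and 228 CPM at 200 nM, against 358 and 345 CPM at 150 nM (-0.61 ± 0.03). Ccnd2, a D-type cyclin, had 193 and 188 CPM at 200 nM, against 268 and 240.4 CPM at 150 nM (-0.42 ± 0.04). E2f3 had 28.6 and 25.8 CPM at 200 nM, against 41.4 and 40.9 CPM at 150 nM (-0.60 ± 0.09). The 3 that rose, named after their values were seen, were the cyclin genes Ccnd3 (0.18 ± 0.03), Ccne1 (0.15 ± 0.05) and Ccna2 (0.08 ± 0.03). With library size scaling 1 gene of the list rose and 13 fell. There Ccne1 lost its call (adjusted p = 0.541) and Ccna2 took the other sign (-0.0319, adjusted p = 0.412). Ccne1 also lost its call without replicate 2 at 200 nM and without replicate 2 at 150 nM (adjusted p = 0.103 and 0.279). Ccna2 lost it without replicate 1 or 2 at 200 nM and without replicate 1 at 150 nM (adjusted p = 0.115, 0.129 and 0.194), with the compared doses alone, with no filter on low counts and with Rn45s and globins left out of the scaling.

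DNA replication fell almost as a whole. Of 32 tested genes 30 fell and 0 rose, with a median of -0.46 on the log2 scale. Mcm6, a subunit of the MCM helicase that opens DNA at origins (chromosome 1, 128331590 to 128359664), had 866 and 850.4 CPM at 200 nM, against 1354 and 1338 CPM at 150 nM. It fell by 0.65 ± 0.03 (edgeR adjusted p = 1.32e-23). Its partner subunit Mcm4 had 358 and 347 CPM at 200 nM, against 547 and 557 CPM at 150 nM (-0.65 ± 0.03). The subunit Mcm3 had 807 and 762 CPM at 200 nM, against 1125 and 1099 CPM at 150 nM (-0.50 ± 0.03). Uhrf1, which guides maintenance methylation to new DNA, had 167 and 165 CPM at 200 nM, against 287 and 271 CPM at 150 nM. It fell by 0.75 ± 0.04. The 200 nM libraries were the lower ones in these genes, with no overlap, as in 66.98% of all tested genes. At 100 against 0 nM 12 of the replication genes were higher and 8 lower, with a median of 0.04. With library size scaling these counts were 7 higher and 19 lower. On the TMM scale 34.1% of all tested genes were higher and 32.5% lower there, so the counts of 12 and 8 are near those shares. At 150 against 100 nM 29 of the replication genes were lower and 0 higher (median -0.34), against 20.2% and 20.6% of all tested genes.

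Replication genes are textbook targets of E2F factors, so the promoters of 4 of them are shown, with the E2F letters TTTGGCGC or TTTCGCGC on either strand in capitals. They were chosen after their values and matches were seen. The windows and their source are as for the globin promoters, at chr1:128359656-128359955, minus strand, for Mcm6, at chr1:20820263-20820562, minus strand, for Mcm3, at chr8:122567765-122568064, plus strand, for Cdt1, which loads the helicase, and at chr8:75109259-75109558, plus strand, for Mcm5.
Mcm6: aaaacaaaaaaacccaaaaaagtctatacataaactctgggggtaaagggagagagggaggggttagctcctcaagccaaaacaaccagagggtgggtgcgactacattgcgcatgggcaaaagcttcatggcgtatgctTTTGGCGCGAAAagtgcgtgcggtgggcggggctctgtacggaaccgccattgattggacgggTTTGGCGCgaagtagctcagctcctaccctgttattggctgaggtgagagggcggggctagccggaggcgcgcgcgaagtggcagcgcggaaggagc
Mcm3: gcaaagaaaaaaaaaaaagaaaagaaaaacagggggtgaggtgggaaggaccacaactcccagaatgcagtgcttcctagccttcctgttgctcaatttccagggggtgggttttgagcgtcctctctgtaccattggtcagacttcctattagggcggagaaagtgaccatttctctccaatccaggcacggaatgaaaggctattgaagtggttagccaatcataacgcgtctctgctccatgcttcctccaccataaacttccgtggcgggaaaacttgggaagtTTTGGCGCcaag
Cdt1: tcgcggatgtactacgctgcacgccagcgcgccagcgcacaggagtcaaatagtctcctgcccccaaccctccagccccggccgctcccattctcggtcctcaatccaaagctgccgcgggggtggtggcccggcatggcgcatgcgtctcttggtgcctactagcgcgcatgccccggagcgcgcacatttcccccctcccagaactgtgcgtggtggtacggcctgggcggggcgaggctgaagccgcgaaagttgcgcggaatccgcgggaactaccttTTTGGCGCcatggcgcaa
Mcm5: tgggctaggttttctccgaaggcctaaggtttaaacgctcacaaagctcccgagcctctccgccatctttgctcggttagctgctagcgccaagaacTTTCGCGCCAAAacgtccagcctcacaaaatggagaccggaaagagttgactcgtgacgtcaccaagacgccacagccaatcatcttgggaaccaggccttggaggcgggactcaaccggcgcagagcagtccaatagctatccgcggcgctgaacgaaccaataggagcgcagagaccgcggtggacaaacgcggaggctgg
Mcm6 held 3 matches, of which the one farthest from the start began 110 bases before it, and overlapping letters were counted for each strand. Mcm5 held 2, and Mcm3 and Cdt1 1 each, at 38 and 32 bases after the start. Either form was in 6 of the 21 replication genes with a single promoter, 28.6%, against 0.809% of all 22862 promoters. The share was 3.33% among the 1323 promoters of genes that fell, 1.06% among the 1225 of genes that rose and 1.84% among the 3856 of genes that were not called. Cdt1 had 110.0 and 106 CPM at 200 nM, against 175 and 181 CPM at 150 nM (-0.72 ± 0.05). Mcm5 had 711 and 673 CPM at 200 nM, against 917 and 882 CPM at 150 nM (-0.38 ± 0.03). A match describes letters in the window and not a bound site.

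Mitosis genes fell in part. Of 29 mitosis and cytokinesis genes 18 fell and 2 rose (median -0.16). Cdk1, the kinase that starts mitosis, had 209 and 195 CPM at 200 nM, against 266 and 264 CPM at 150 nM (-0.39 ± 0.04). Aurkb, a kinase of chromosome alignment, had 142 and 126 CPM at 200 nM, against 182 and 171 CPM at 150 nM (-0.41 ± 0.05). Racgap1, a regulator of the cleavage furrow, had 263 and 256 CPM at 200 nM, against 318 and 322 CPM at 150 nM (-0.30 ± 0.04). Nusap1, a spindle protein, was higher, with 395 and 402 CPM at 200 nM, against 320.4 and 335 CPM at 150 nM (0.28 ± 0.04). The other member that rose was Tpx2 (0.20 ± 0.04), named after its value was seen. At 100 against 0 nM, where 34.1% of all tested genes were higher and 32.5% lower, 23 of the 29 were higher and 2 lower. At 150 against 100 nM, with shares of 20.6% and 20.2%, 9 of the 29 were higher and 8 lower. The median level relative to 0 nM was 0.35, 0.31 and 0.12 on the log2 scale at 100, 150 and 200 nM, and that of the replication list was 0.04, -0.25 and -0.66. Replication-dependent histone messages were sparse in these libraries, with 2 of 23 higher and 5 lower, where 19.4% and 19.9% of all tested genes were. The list median was -0.29. How well the library method captures these messages was not tested. The histone counts were 2 higher and 2 lower without replicate 2 at 200 nM or without replicate 1 at 150 nM. The same counts were found with a minimum of 10 CPM in 2 libraries. The linker histone gene Hist1h1c had 51.4 and 55.8 CPM at 200 nM, against 37.6 and 42.2 CPM at 150 nM (0.44 ± 0.10). Hist1h2bc had 25.6 and 24.9 CPM at 200 nM, against 16.8 and 17.1 CPM at 150 nM (0.58 ± 0.13). Hist1h1d and Hist1h2ae fell, and each lost its call in 1 of 12 alternatives. With single libraries left out, their log2 fold changes ran from -1.21 to -0.85 and from -1.43 to -0.77. Of 20 histone variant and chromatin genes 4 rose and 10 fell, with 1 and 6 without replicate 1 at 200 nM and 3 and 6 without replicate 1 at 150 nM. Dnmt1, the maintenance DNA methylase, had 542 and 528 CPM at 200 nM, against 659.7 and 632 CPM at 150 nM (-0.27 ± 0.03). The deacetylase gene Hdac5 had 109 and 102 CPM at 200 nM, against 73.3 and 67.8 CPM at 150 nM (0.58 ± 0.09). Of 20 nuclear envelope and transport genes 4 rose and 12 fell. The 4 that rose in this list, as in the histone variant list, are near the 19.4% of all tested genes that rose. Rcc1, the exchange factor of the Ran GTPase, had 70.1 and 68.9 CPM at 200 nM, against 123 and 127 CPM at 150 nM (-0.84 ± 0.05). Ran itself had 498 and 495 CPM at 200 nM, against 673 and 686 CPM at 150 nM (-0.45 ± 0.03). On the other side, Lmna, which encodes the A-type lamins, had 1230.0 and 1214 CPM at 200 nM, against 917 and 956 CPM at 150 nM (0.38 ± 0.03).

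**Figure D4:**
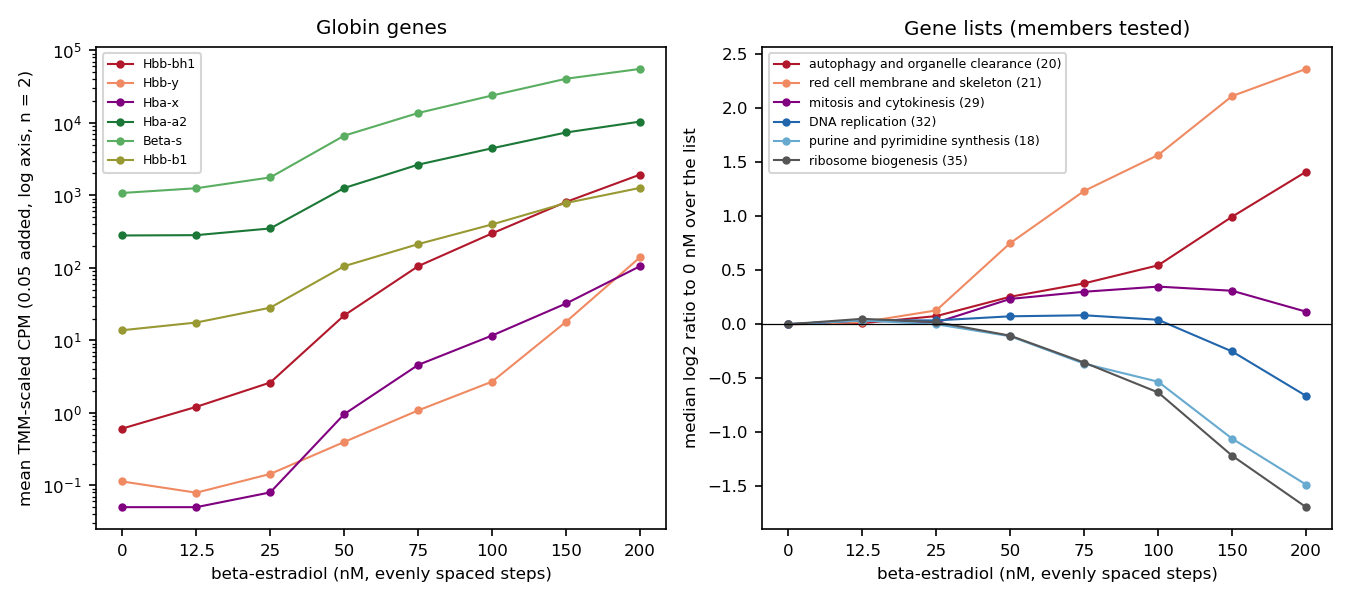
Left, mean TMM-scaled CPM of 6 globin genes at each of the 8 doses (n = 2, 0.05 added, log axis); right, median log2 ratio to 0 nM over the tested members of 6 gene lists at each dose, with doses evenly spaced on both axes. The replication median is 0.04, -0.25 and -0.66 at 100, 150 and 200 nM, and the membrane median is 1.57, 2.11 and 2.36.

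Genes for ribosome production and nucleotide synthesis fell. Of 35 ribosome biogenesis genes 32 fell and 0 rose (median -0.53). Nolc1, a nucleolar phosphoprotein, had 120.2 and 123 CPM at 200 nM, against 218 and 202 CPM at 150 nM (-0.79 ± 0.04). Dkc1, the pseudouridine synthase of the nucleolus, had 126 and 133 CPM at 200 nM, against 219 and 210.5 CPM at 150 nM (-0.73 ± 0.04). Nop58 of the box C/D particles had 284 and 279 CPM at 200 nM, against 434 and 448 CPM at 150 nM (-0.65 ± 0.04). Mybbp1a had 336 and 332 CPM at 200 nM, against 529.9 and 497 CPM at 150 nM (-0.62 ± 0.03). The 200 nM libraries were the lower ones in these genes, without overlap, as in 66.98% of all tested genes. Of 18 purine and pyrimidine synthesis genes 17 fell and 1 rose (median -0.50). Ppat, the first committed enzyme of purine synthesis, had 65.0 and 72.1 CPM at 200 nM, against 118 and 113 CPM at 150 nM (-0.76 ± 0.05). Atic, the last, had 66.3 and 65.1 CPM at 200 nM, against 113 and 114 CPM at 150 nM (-0.79 ± 0.05). Adsl had 169.7 and 165 CPM at 200 nM, against 236 and 239 CPM at 150 nM (-0.50 ± 0.04). The member that rose was Impdh1 (0.77 ± 0.17), named after its value was seen, with 9.95 and 12.7 CPM at 200 nM, against 6.38 and 7.03 CPM at 150 nM. Of 14 one-carbon and serine genes 11 fell and 1 rose (median -0.50). Mthfd1, the cytosolic folate enzyme, had 154 and 150.4 CPM at 200 nM, against 259 and 269 CPM at 150 nM (-0.79 ± 0.04). This list shares Gart and Atic with the nucleotide list.

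Among genes of protein synthesis more fell than rose, where 19.4% of all tested genes rose and 19.9% fell. Of 62 cytosolic ribosomal protein genes 2 rose and 21 fell, with a median of -0.07, and with library size scaling 1 rose and 50 fell. With a trend of transcript length removed 5 rose and 13 fell, with a median of -0.02. Rps18 had 525 and 519 CPM at 200 nM, against 581 and 632 CPM at 150 nM (-0.21 ± 0.04). Rpl28 had 610.5 and 621 CPM at 200 nM, against 547 and 509 CPM at 150 nM (0.22 ± 0.04). Ribosomal protein genes have many near-identical pseudogenes, so single values are uncertain. Of 26 initiation and elongation factors 4 rose and 15 fell, with library size scaling 1 and 20. Eif5a, a factor that helps ribosomes through difficult stretches, had 1332 and 1335 CPM at 200 nM, against 1691 and 1658 CPM at 150 nM (-0.33 ± 0.03). The helicase gene Eif4a1 had 163 and 163 CPM at 200 nM, against 215 and 216 CPM at 150 nM (-0.40 ± 0.04). Of 20 transfer RNA synthetases 1 rose and 12 fell. The valine enzyme gene Vars had 424 and 414 CPM at 200 nM, against 549.7 and 554 CPM at 150 nM (-0.40 ± 0.04). Of 26 splicing factors 1 rose and 15 fell. The serine- and arginine-rich factors Srsf3 and Srsf7 were among those that fell. Srsf3 had 283 and 282 CPM at 200 nM, against 390.1 and 403 CPM at 150 nM (-0.49 ± 0.04). Srsf7 had 135 and 135 CPM at 200 nM, against 193 and 208 CPM at 150 nM (-0.56 ± 0.04). Of 20 heat shock and chaperonin genes 6 rose and 12 fell. The count that rose was 2 with library size scaling and 3 without replicate 2 at 200 nM. Hspd1, the mitochondrial chaperonin, had 328 and 322 CPM at 200 nM, against 506 and 490.3 CPM at 150 nM (-0.62 ± 0.03). Hsp90aa1 had 427 and 453 CPM at 200 nM, against 599 and 592 CPM at 150 nM (-0.44 ± 0.03).

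Energy metabolism shifted in parts. Over all tested genes 19.4% rose and 19.9% fell. The 4 of 20 genes that rose in glycolysis, and in the tricarboxylic acid cycle, are near that share. Of 20 glycolysis genes 4 rose and 10 fell (median -0.23). Ldha, lactate dehydrogenase, had 386 and 408 CPM at 200 nM, against 669.7 and 669.7 CPM at 150 nM (-0.75 ± 0.03). Tpi1 had 284 and 297 CPM at 200 nM, against 463 and 414 CPM at 150 nM (-0.60 ± 0.04). Pkm, pyruvate kinase, had 128 and 137 CPM at 200 nM, against 183 and 180.3 CPM at 150 nM (-0.45 ± 0.04). The 4 that rose, named after their values were seen, were Slc2a3 (0.49 ± 0.10), a glucose transporter, Bpgm (0.46 ± 0.06), which makes bisphosphoglycerate in red cells, Aldoa (0.15 ± 0.03) and Hk1 (0.11 ± 0.04). With library size scaling 2 rose and 12 fell, and Aldoa (adjusted p = 0.213) and Hk1 (adjusted p = 0.975) were no longer called. Hk1 lost its call in 6 of 13 alternatives, also without replicate 1 or 2 at 200 nM and without replicate 2 at 150 nM. Of 20 tricarboxylic acid cycle genes 4 rose and 10 fell. Idh3a, a subunit of isocitrate dehydrogenase, had 107 and 105 CPM at 200 nM, against 146 and 155 CPM at 150 nM (-0.50 ± 0.04). Suclg2 had 28.4 and 29.2 CPM at 200 nM, against 44.8 and 48.5 CPM at 150 nM (-0.69 ± 0.07). Of 36 nuclear genes of oxidative phosphorylation 3 rose and 18 fell (median -0.09), and with library size scaling 2 rose and 32 fell. Without replicate 2 at 200 nM 3 rose and 10 fell. Atp5a1, a subunit of the ATP synthase, had 1476 and 1457 CPM at 200 nM, against 1712 and 1709 CPM at 150 nM (-0.22 ± 0.03). Cox6a1, a subunit of cytochrome c oxidase, had 443 and 442 CPM at 200 nM, against 364 and 368 CPM at 150 nM (0.27 ± 0.03). Of 21 cholesterol genes 10 rose and 1 fell, and with library size scaling 4 rose and 3 fell. Fdft1, squalene synthase, had 358 and 355 CPM at 200 nM, against 291 and 279 CPM at 150 nM (0.32 ± 0.04).

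Signalling and stress genes moved both ways, with the counts that fell near the share over all tested genes (19.9% lower, 19.4% higher). Of 15 genes of erythropoietin receptor signalling 5 rose and 3 fell, and with library size scaling 4 rose and 3 fell. The members described here are among those that rose, and those that fell are not named. Fam132b, which encodes the iron hormone erythroferrone, had 198 and 194 CPM at 200 nM, against 133 and 132 CPM at 150 nM (0.57 ± 0.05). Cish, a feedback inhibitor of STAT5, had 342 and 315 CPM at 200 nM, against 248 and 256 CPM at 150 nM (0.38 ± 0.04). The kinase gene Pim1 had 801 and 792 CPM at 200 nM, against 654 and 686 CPM at 150 nM (0.25 ± 0.03). Of 18 integrated stress response genes 6 rose and 4 fell, and with library size scaling 6 rose and 6 fell. Eif2ak1, the heme-sensing kinase of translation, had 795 and 791 CPM at 200 nM, against 559 and 551 CPM at 150 nM (0.51 ± 0.03). Ppp1r15a, which reverses its mark, had 402 and 396 CPM at 200 nM, against 274 and 269.5 CPM at 150 nM (0.55 ± 0.04). Psat1 of serine synthesis had 268 and 255 CPM at 200 nM, against 357 and 345 CPM at 150 nM (-0.43 ± 0.03).

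Over all tested genes 19.4% rose and 19.9% fell, and the interferon, hypoxia and estrogen receptor counts below are near or under those shares. Of 14 immediate early genes 7 rose and 2 fell. With library size scaling 3 rose and 3 fell, and 3 rose and 2 fell with DESeq2, without replicate 1 at 200 nM or without replicate 1 at 150 nM. Klf6 had 102 and 101 CPM at 200 nM, against 65.8 and 57.0 CPM at 150 nM (0.72 ± 0.08). Klf10 had 3.59 and 3.14 CPM at 200 nM, against 11.2 and 7.38 CPM at 150 nM (-1.51 ± 0.20). Of 9 interferon genes 2 rose and 1 fell. Irf9, a transcription factor of interferon signalling, had 46.7 and 44.1 CPM at 200 nM, against 31.4 and 33.3 CPM at 150 nM (0.49 ± 0.10). Among 13 genes known from hypoxia 2 rose and 3 fell, and with DESeq2 2 rose and 2 fell. Pdk1, a brake on pyruvate use, had 172 and 171 CPM at 200 nM, against 226 and 228 CPM at 150 nM (-0.41 ± 0.04). Mxi1 had 26.0 and 24.5 CPM at 200 nM, against 15.8 and 16.047 CPM at 150 nM (0.66 ± 0.13). Of 7 classical estrogen receptor targets 1 rose and 1 fell, Ctsd (0.34 ± 0.03), a lysosomal protease, and Myb (-0.68 ± 0.14), a progenitor factor. The list median was 0.07 on the TMM scale and -0.04 with library size scaling.

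Transport and noncoding RNA genes moved both ways, where 19.4% of all tested genes rose and 19.9% fell. Of 11 amino acid transporters 4 rose and 3 fell, with library size scaling 3 and 4, where their median of 0.09 became -0.02. Slc6a9, the glycine transporter that feeds heme synthesis, had 238 and 233 CPM at 200 nM, against 162 and 168 CPM at 150 nM (0.51 ± 0.05). Slc7a1, a transporter of cationic amino acids, had 63.9 and 70.4 CPM at 200 nM, against 92.2 and 82.8 CPM at 150 nM (-0.39 ± 0.06). Of 8 polyamine genes 3 rose and 2 fell, with library size scaling 3 and 4. Sat1, which starts their breakdown, had 73.6 and 76.3 CPM at 200 nM, against 50.6 and 48.1 CPM at 150 nM (0.60 ± 0.09). Of 14 nuclear long noncoding RNAs and snoRNA hosts 7 rose and 4 fell. Malat1, an RNA of nuclear speckles, had 598 and 593 CPM at 200 nM, against 365 and 385 CPM at 150 nM (0.67 ± 0.04).

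Markers of other cell types were near 0 for the most part. Of 15 megakaryocyte and platelet markers 5 (Gp1bb, Gp6, Vwf, Selp and Thbs1) were at 0 in all 4 libraries, and the summed level of the list was 885 and 882 CPM at 200 nM, against 601 and 609.6 CPM at 150 nM. The 3 markers of this list that rose were Tubb1, Itgb3 and Plek. Tubb1, a beta-tubulin of platelets, had 193 and 189 CPM at 200 nM, against 95.8 and 104 CPM at 150 nM (0.94 ± 0.08). Itgb3, an integrin chain, had 412 and 396 CPM at 200 nM, against 293 and 295 CPM at 150 nM (0.46 ± 0.04). Plek, a substrate of protein kinase C, had 232 and 248 CPM at 200 nM, against 168 and 171 CPM at 150 nM (0.50 ± 0.06). The part of these genes in the other results was not tested. The granulocyte and macrophage list summed to 602 and 581 CPM at 200 nM, against 466 and 436 CPM at 150 nM, with Mpo, Ctsg, Lyz2, S100a8 and S100a9 at 0. Csf2rb, the common receptor subunit of several cytokines, alone had 596 and 576 CPM at 200 nM, against 461 and 433 CPM at 150 nM. The mast cell list summed to 24.0 and 26.9 CPM at 200 nM, against 38.8 and 34.9 CPM at 150 nM, with 5 of 12 markers at 0 and Gata2 among its members. The lymphocyte list summed to 14.1 and 16.5 CPM at 200 nM, against 17.2 and 16.2 CPM at 150 nM, and the fibroblast and endothelial list to 1.01 and 0.593 CPM, against 1.92 and 1.17 CPM, each with 8 of 12 markers at 0.

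The last step was then set against the step before it, which adds the same amount of beta-estradiol. At 150 against 100 nM, 4120 genes were called, 40.9% of the 10080 tested, 2081 higher (20.6%) and 2039 lower (20.2%), with median changes of 1.30-fold and 1.28-fold. The 2 steps share the 150 nM libraries, so their difference was tested in a single contrast. By that test 201 genes differed, 1.99%, of which 50 changed more upward at the last step (0.496%) and 151 more downward (1.5%). Without replicate 2 at 150 nM, the shallowest library, the counts were 15 and 68, without replicate 1 at 150 nM they were 34 and 81, and without a 100 nM library the higher count was 27 or 29 and the lower count 106 or 97. Both classes were picked by the difference of steps, which takes in the earlier step and the shared 150 nM libraries. Their split by earlier direction is therefore partly fixed by that choice and is description only. Over all tested genes 20.6% were higher and 20.2% lower at the earlier step. Of the 151 genes, 107 had risen at 150 against 100 nM, and at 200 against 150 nM 48 of these were still higher, 42 were not called and 17 were lower. A further 24 had not been called at the earlier step and fell at the last, and 20 fell in both. Of the 50 genes, 33 had fallen at the earlier step, and at the last step 10 of these were higher, 19 were not called and 4 were still lower.

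Single genes differed between the steps in several ways. Arhgef10l, a guanine nucleotide exchange factor, averaged 38.3, 40.0 and 22.0 CPM at 100, 150 and 200 nM, a difference between steps of -0.92 ± 0.16 (edgeR adjusted p = 0.000303). Grifin, a galectin-related gene, averaged 7.45, 19.8 and 21.4 CPM (-1.28 ± 0.26), Zbtbd6 16.6, 20.6 and 13.5 CPM (-0.93 ± 0.23), and Cyba, a subunit of the NADPH oxidase, 24.7, 36.1 and 28.4 CPM (-0.92 ± 0.18). The value in parentheses is here the difference between steps, and the fall of Cyba at the last step was not called without replicate 2 at 200 nM (adjusted p = 0.0559) or without replicate 1 at 150 nM (adjusted p = 0.182). In the other direction, Sphk1, a sphingosine kinase, averaged 73.7, 45.1 and 48.5 CPM (0.84 ± 0.11), the metallothionein gene Mt2 50.0, 17.2 and 10.3 CPM (0.83 ± 0.17), and Vwa8 36.2, 25.8 and 29.9 CPM (0.71 ± 0.19). Kcnq1ot1, an imprinted RNA antisense to Kcnq1, averaged 56.1, 34.4 and 47.5 CPM (1.19 ± 0.15). The last step itself was not called for Grifin (adjusted p = 0.546), Sphk1 (adjusted p = 0.171) or Vwa8 (adjusted p = 0.112), and Mt2 fell at both steps. The difference between steps kept its call in all 15 alternatives run for Arhgef10l, Sphk1 and Kcnq1ot1. It was lost without replicate 1 at 150 nM for Cyba and Mt2 (adjusted p = 0.197 and 0.252), without replicate 2 at 150 nM for Grifin (adjusted p = 0.0787), and in 5 alternatives for Zbtbd6 and 7 for Vwa8, leaving out either replicate at 150 nM among them. With a trend of transcript length removed, the rise of Kcnq1ot1 at the last step was 0.16 and was not called (adjusted p = 0.161). Without strand the reads of Kcnq1ot1 cannot be told apart from those of Kcnq1. Of the 32 replication genes 7 fell more at the last step, Cdt1, Mcm3, Mcm4, Mcm6, Pold1, Rfc2 and Uhrf1, named because they passed, and 0 fell less. The call of Mcm6 held in all 15 alternatives, those of Mcm4, Pold1 and Uhrf1 in 14, that of Mcm3 in 11, that of Rfc2 in 7 and that of Cdt1 in 4. The losses of Mcm4 and Pold1 came without replicate 2 at 150 nM and that of Uhrf1 without replicate 1 at 150 nM. Mcm6 changed by -0.65 ± 0.03 at 200 against 150 nM and by -0.32 ± 0.03 at 150 against 100 nM, a difference of -0.33 ± 0.05 (edgeR adjusted p = 1.21e-05). Of the 29 mitosis genes 4 moved more downward, Cdk1, Cenpe, Prc1 and Racgap1, with the call kept in 8, 13, 4 and 15 of the 15 alternatives. Of the 7 globin, 15 heme synthesis and 21 membrane genes 1 each was called in the test of the difference, with list medians of -0.22, -0.00374 and -0.08 where the median over all tested genes was -0.02. These 3 genes rose less at the last step: Alas2 by 0.68 ± 0.03, after 0.85 ± 0.03 at 150 against 100 nM (adjusted p of the difference 0.0494), Slc4a1 by 0.49 ± 0.03, after 0.76 ± 0.03 (0.000311), and Hba-a2 by 0.50 ± 0.03, after 0.72 ± 0.03 (0.00256). The call of Slc4a1 held in all 15 alternatives. That of Hba-a2 was lost with the length trend removed (adjusted p = 0.397) and without replicate 1 at 150 nM (adjusted p = 0.0932), and that of Alas2 was lost in 9 of 15, without each of the 6 libraries in turn among them (adjusted p up to 0.405).

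The response at 100 against 0 nM comes from libraries that neither dose of the last step uses. There 6711 genes were called, 66.6%, with 3436 higher (34.1%) and 3275 lower (32.5%). Of the genes that rose at the last step 1438 had also risen at 100 against 0 nM, 73.5% of the 1956 that rose at the last step and 41.9% of the 3436, and 159 had fallen, 8.13% and 4.85% of those classes. Of the genes that fell at the last step 1400 had fallen before, 69.7% of the 2010 and 42.7% of the 3275, and 246 had risen. In all 2838 genes kept their direction, 405 took the opposite one, and 723 were called at the last step but not at 100 against 0 nM. The share that rose again was 35.1% among the 1611 genes up to 1.5-fold higher at 100 nM, 52.2% among the 719 between 2-fold and 4-fold, and 46.5% among the 385 past 4-fold. Among the 143 genes lower by more than 4-fold at 100 nM, 11.9% were called lower again, and their median level at 150 nM was 0.447 CPM.

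**Figure D5:**
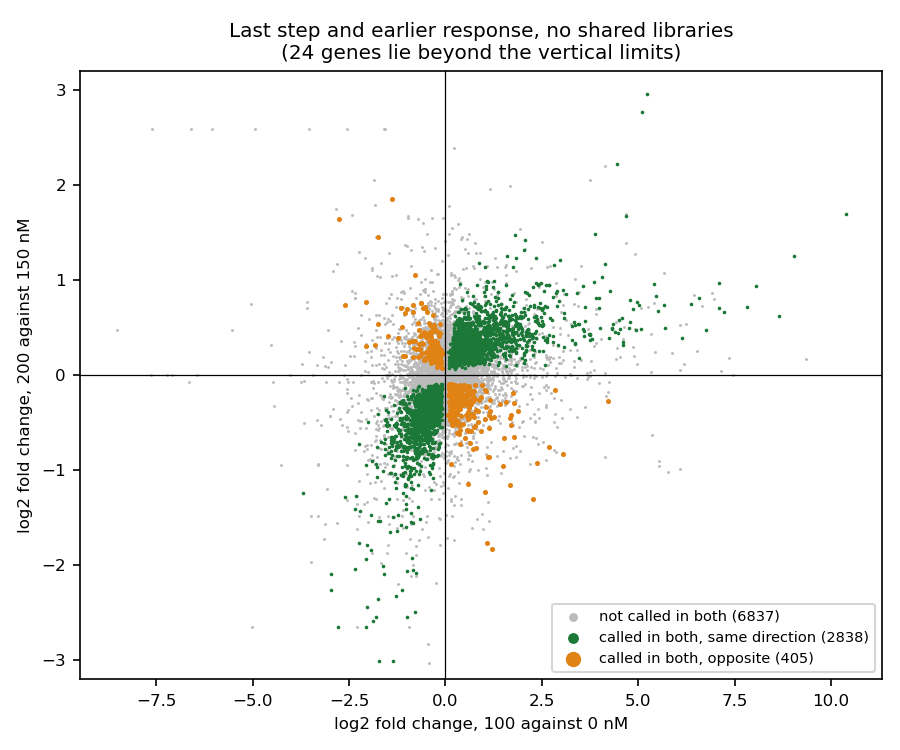
Log2 fold change of 200 against 150 nM (vertical axis) and of 100 against 0 nM (horizontal axis) for each tested gene, green where a gene was called in the same direction in both, orange where called in opposite directions and grey otherwise; 24 genes lie beyond the vertical limits of 3.2. The 2838 genes in green lie at the lower left and upper right, and the 405 in orange at the other corners.

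Among the genes that turned against their earlier direction, Plin3 averaged 15.9, 9.23, 14.0 and 29.1 CPM at 0, 100, 150 and 200 nM. It had fallen by 100 nM (log2 fold change -0.78 ± 0.12) and rose at the last step (1.06 ± 0.12). Plxnc1, a semaphorin receptor, averaged 33.2, 21.2, 33.1 and 56.7 CPM, Egfl7, a secreted factor, 48.5, 33.7, 42.5 and 70.4 CPM, and Tmem120a 33.8, 24.5, 30.7 and 48.8 CPM. The last step of these 3 genes was 0.76 ± 0.09, 0.72 ± 0.08 and 0.67 ± 0.09 on the log2 scale. In the other direction Ung, the uracil glycosylase of DNA repair, averaged 93.2, 102, 69.1 and 36.0 CPM, higher at 100 nM than at 0 nM (0.14 ± 0.05) and lower at the last step (-0.94 ± 0.07). Tcf19 averaged 30.3, 39.1, 34.0 and 20.6 CPM (last step -0.72 ± 0.10), and Ly75, an endocytic receptor, 42.3, 66.2, 57.4 and 35.1 CPM (-0.71 ± 0.08). Arhgef10l, named for its turn between the steps, also belonged here, with 1.10 ± 0.09 at 100 against 0 nM and -0.86 ± 0.10 at the last step.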

How the data were processed

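RNA of the 16 libraries (8 doses, 2 each) was prepared with Smart-seq2, per the labels' protocols. Smart-seq2 loses strand and has no molecular identifiers, so reads are not independent molecules. The authors deposited raw counts per gene symbol (23410 symbols) in 1 table, taken as counts from their whole values and unequal totals. STAR, bcl2fastq and mm10 are named, per the submitters' processing notes. Versions, the counting program and the annotation were not given in these sources. Reads of near-identical genes may be split or lost.

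Genes were kept by filterByExpr (10080) and scaled by TMM in edgeR 4.0.16 (R 4.3.3). A robust quasi-likelihood model with dose as a factor was fitted to all 16 libraries, since 2 per dose give too little spread alone (an exact permutation test of 2 against 2 cannot go below p = 0.333). Adjusted p-values are Benjamini-Hochberg within each contrast, called under 0.05, fold changes are given with SE, and CPM are TMM-scaled. The code was tested on simulated counts drawn from the fitted model, with 9880 of the 10080 genes left unchanged. There 32% of genes changed by 1.25-fold and 82% by 2-fold were called for 200 against 150 nM, with 14 false calls among the 9880. In the data 39.3% of genes were called, so these rates check the code and do not carry over to the data. Technical replication and departures from the model were not simulated. Members and gene lists (47, with 794 distinct tested symbols) were chosen with earlier results of these data known. Genes named are the 15 highest and 15 lowest changes past 20 CPM with the same direction in every pairing of libraries, the 4 highest and 4 lowest for the difference of steps and for opposite directions, Gata1, Gata2 and up to 4 members per list by adjusted p; other list members were named after their values were seen. Coordinates are from GENCODE M21 (mm10). Alternatives were RLE scaling, library size alone, TMM without Rn45s and globins, no filter, a minimum of 10 CPM in 2 libraries, DESeq2 1.42.0, the compared doses alone, a replicate block, each library left out, and, chosen after seeing the data, removal of a trend with transcript length. Other globin genes such as Hba-a1, and the globin chaperone gene Ahsp, were not analysed here.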

Additional observations from a re-analysis of the deposited data

How the results depend on the processing

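At 200 against 150 nM, the counts of 1956 genes higher and 2010 lower stayed within 1.5 times under all alternatives except library size alone, which gave 1168 higher and 3088 lower; there 27.4% of calls were higher, against 49.3% on the TMM scale, and 15 calls took the other sign. Leaving out each library gave 1565 to 1611 higher and 1610 to 1752 lower. For the last step minus the step before, 50 higher and 151 lower became 26 and 100 with DESeq2, and 233 lower with library size alone. Leaving out each library gave 15 to 36 higher and 68 to 124 lower, with 27 and 29 higher without replicate 1 and 2 at 100 nM, 97 lower without replicate 2 at 100 nM, 81 lower without replicate 1 at 150 nM, and 15 and 68 without replicate 2 at 150 nM. The cause was not tested. Genes in the same direction at 100 against 0 nM (2838) ran from 2335 to 2690 without each library, and opposite ones (405) from 308 to 350. The replicate numbers did not pair the libraries: none of the 28 pairs of doses had deviations correlated over 0.1 (-0.058 to 0.096). With the replicate block 1936 genes were higher and 1998 lower at the last step, and 45 and 137 for the difference of steps. Over 229 genes, 207 named by the rule and 22 outside it, and the alternatives, 2904 results for 200 against 150 nM kept direction and call, 42 lost the call, 7 gained it and 1 reversed, Ccna2 with library size alone (-0.0319). Among the losses were Kcnq1ot1 and Ifitm2 without the length trend, Gata1 and Srebf2 with library size alone, Gata1 with the replicate block, Lmo4 and Ccna2 under several settings, Ccne1, Hk1 and Aldoa with library size alone, and Cyba, Gata1, Hist1h1d, Hist1h2ae, Slc2a1, Rbl1, Ccne1 and Hk1 without single libraries. Among the gains were Esr1, Xbp1 and Cenpe. Depth limits sparse genes, such as the 141 under 20 CPM among the 160 changes of 2-fold or more.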
